A study of Rattus norvegicus with 22 samples.

Results

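The pericyte and smooth muscle genes described here are Acta2, Tagln, Myh11, Cnn1, Des, Pdgfrb, Rgs5 and Anpep, 8 of the 14217 genes that the array names. They were chosen by symbol for a difference already seen between clenbuterol and tempol in these same arrays, so that difference is given below as a description and not as a test. The 8 genes are read by 11 of the 31042 probe sets, 3 of them for Pdgfrb, 2 for Myh11 and 1 for each other gene. Where a gene had several, it was represented by the probe set with the highest mean signal, and all 8 representatives had a mean at or over a signal of 64. Another 5 probe sets are assigned to both Acta2 and the cardiac actin gene Actc1 and were not counted as members.

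The study measured RNA of rat spinal cord at thoracic level 10 on 22 Affymetrix arrays. Every contused cord had taken the blow of a 10 g rod falling 25 mm, and was collected 24 h afterwards, following perfusion with buffered saline. In the clenbuterol group (2 arrays) the rats received 150 mg/kg of clenbuterol, a beta-adrenergic agonist, 20 min after the injury, a labelled dose whose unit could not be checked here. In the X-ray group (3 arrays) the dose was 10 Gy at 20 min, and in the tempol group (3 arrays) it was 275 mg/kg of tempol, a nitroxide antioxidant, at 20 min. The BSO group (3 arrays) received 150 mg/kg of buthionine sulfoximine, which blocks glutathione synthesis, 24 h before the injury, and the tempol plus BSO group (3 arrays) received both agents at those doses and times. Contusion without treatment has 2 arrays, laminectomy without contusion 3 and normal cord 3. The sources used here do not give the collection time of the laminectomy and normal groups, the strain, sex and age of the rats, or whether each array is a separate animal. The p-values therefore measure only the spread between arrays, which may be technical.

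Pericytes and vascular smooth muscle cells wrap the vessels of the spinal cord. Smooth muscle cells of arterioles contract through actin and a smooth muscle myosin, with calponin and transgelin bound to the actin filaments. Pericytes of capillaries carry little of this machinery and are recognised by the PDGF receptor beta, which they need to stay on the endothelium, and after cord injury they can leave the vessel and take part in the scar. Serum response factor drives many contractile genes through a DNA element named the CArG box. Several of these genes are active in other cells too, among them fibroblasts and, for Des, striated muscle, and a whole piece of cord does not show which cells gave the signal. Fewer cells of a type and less RNA per cell cannot be told apart in such tissue.

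The promoters of Acta2 and Des are shown because Acta2 is a well known serum response factor target and Des the member with the widest difference between clenbuterol and tempol. Both sequences are from RefSeq on the GRCr8 build, 300 bases each, with 250 before and 50 after the gene start, written 5′ to 3′ along the gene. Capitals mark CArG boxes, searched on both strands with 1 letter of the A or T core allowed to be G or C.
Acta2, chr1:241172454-241172753, minus strand: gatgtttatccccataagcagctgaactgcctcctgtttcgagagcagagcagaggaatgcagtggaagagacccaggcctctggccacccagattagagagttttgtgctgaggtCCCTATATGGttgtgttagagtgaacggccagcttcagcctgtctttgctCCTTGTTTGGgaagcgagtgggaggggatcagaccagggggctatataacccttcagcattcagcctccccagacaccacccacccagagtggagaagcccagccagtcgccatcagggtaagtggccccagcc
Des, chr9:84299376-84299675, plus strand: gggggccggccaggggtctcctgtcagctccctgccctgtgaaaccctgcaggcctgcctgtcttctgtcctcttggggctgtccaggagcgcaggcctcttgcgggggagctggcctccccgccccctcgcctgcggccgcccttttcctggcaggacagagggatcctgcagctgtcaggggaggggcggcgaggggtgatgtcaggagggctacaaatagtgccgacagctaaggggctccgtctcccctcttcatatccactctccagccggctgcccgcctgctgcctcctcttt
The Acta2 window holds 2 such boxes, CCCTATATGG at 134 to 125 bases and CCTTGTTTGG at 84 to 75 bases before the gene start, and the Des window holds none of these letters. Of the 5 members with a promoter in the table (Acta2, Des, Anpep, Cnn1 and Rgs5), 1 had a match, beside 9.42% of all 33469 promoters in the same window. Without any substitution the share of all promoters was 1.64%. The match is a description of the letters only.

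The signal is an intensity on a linear scale, with each array scaled to a common trimmed mean of about 250 (249.99 to 250.05), and differences are of log2 signal with standard errors from limma. Laminectomy replicate 2 and normal replicate 1 stood apart, with a median r of 0.667 and of 0.685 to all others. The remaining 20 lay between 0.725 and 0.785. The log2 ratio of the 3′ to the 5′ GAPDH control signal was 0.76 and 1.49 on those arrays, and −0.20 to 0.85 on the remaining 20. With clenbuterol this ratio was 0.02 and −0.20, below the 0.16, 0.85 and 0.69 with tempol. Its part in the differences of the members was not tested. Of 13 markers of neurons and glia measured, 12 had a mean signal at or over 64. That is a low bar, which Tagln passed at percentile 26.6 of all probe sets. The highest of these markers, the myelin gene Mbp, had a mean log2 of 15.16, beside a median of 7.13 over all probe sets. The replicate numbers did not pair the arrays.

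Across the 22 arrays each gene had its own order of groups, and few neighbouring groups were further apart than the standard error of their difference. Groups sorted by their means have near neighbours by construction, so these steps cannot show whether groups further apart in the order differ. The mean log2 signal of Acta2, the alpha smooth muscle actin, ran from 9.13 in the clenbuterol group to 10.09 in the tempol group, with X-ray, contusion, tempol plus BSO, laminectomy, BSO and normal in between, and 0 of its 7 neighbouring steps exceeded their standard error. For Myh11, the smooth muscle myosin heavy chain, the highest group was X-ray at 9.62 and the lowest contusion at 8.03. Cnn1, the calponin of smooth muscle, was highest after contusion at 7.65 and lowest in normal cord at 6.10. Tagln, the actin-binding transgelin, had the same highest and lowest groups at 7.14 and 4.74. For Des, the intermediate filament desmin of muscle and pericytes, BSO was highest at 7.91 and normal cord lowest at 5.09.

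The 3 genes of the pericyte surface and its signals shared most of these extremes with one or another contractile gene. Pdgfrb, the receptor for PDGF-B on pericytes, was highest with tempol at 9.51 and lowest after contusion at 7.59. Rgs5, a regulator of G protein signalling used as a pericyte marker, ran from 7.10 with clenbuterol to 7.97 with tempol plus BSO, and Anpep, the cell surface aminopeptidase N, from 7.68 with clenbuterol to 9.53 after contusion. Of the 7 steps between neighbouring groups, 1 exceeded its standard error for Des, 1 for Cnn1 and 1 for Rgs5, and 0 did so for the other 5 genes. Replicates were tight for Acta2, with a within-group SD of 0.35 on the log2 scale, and for Rgs5 with 0.47, against a median of 0.86 over all probe sets. Tagln was the most variable member at 1.69, which is above that of 99.1% of all probe sets, and Pdgfrb followed at 1.14.

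**Figure D1:**
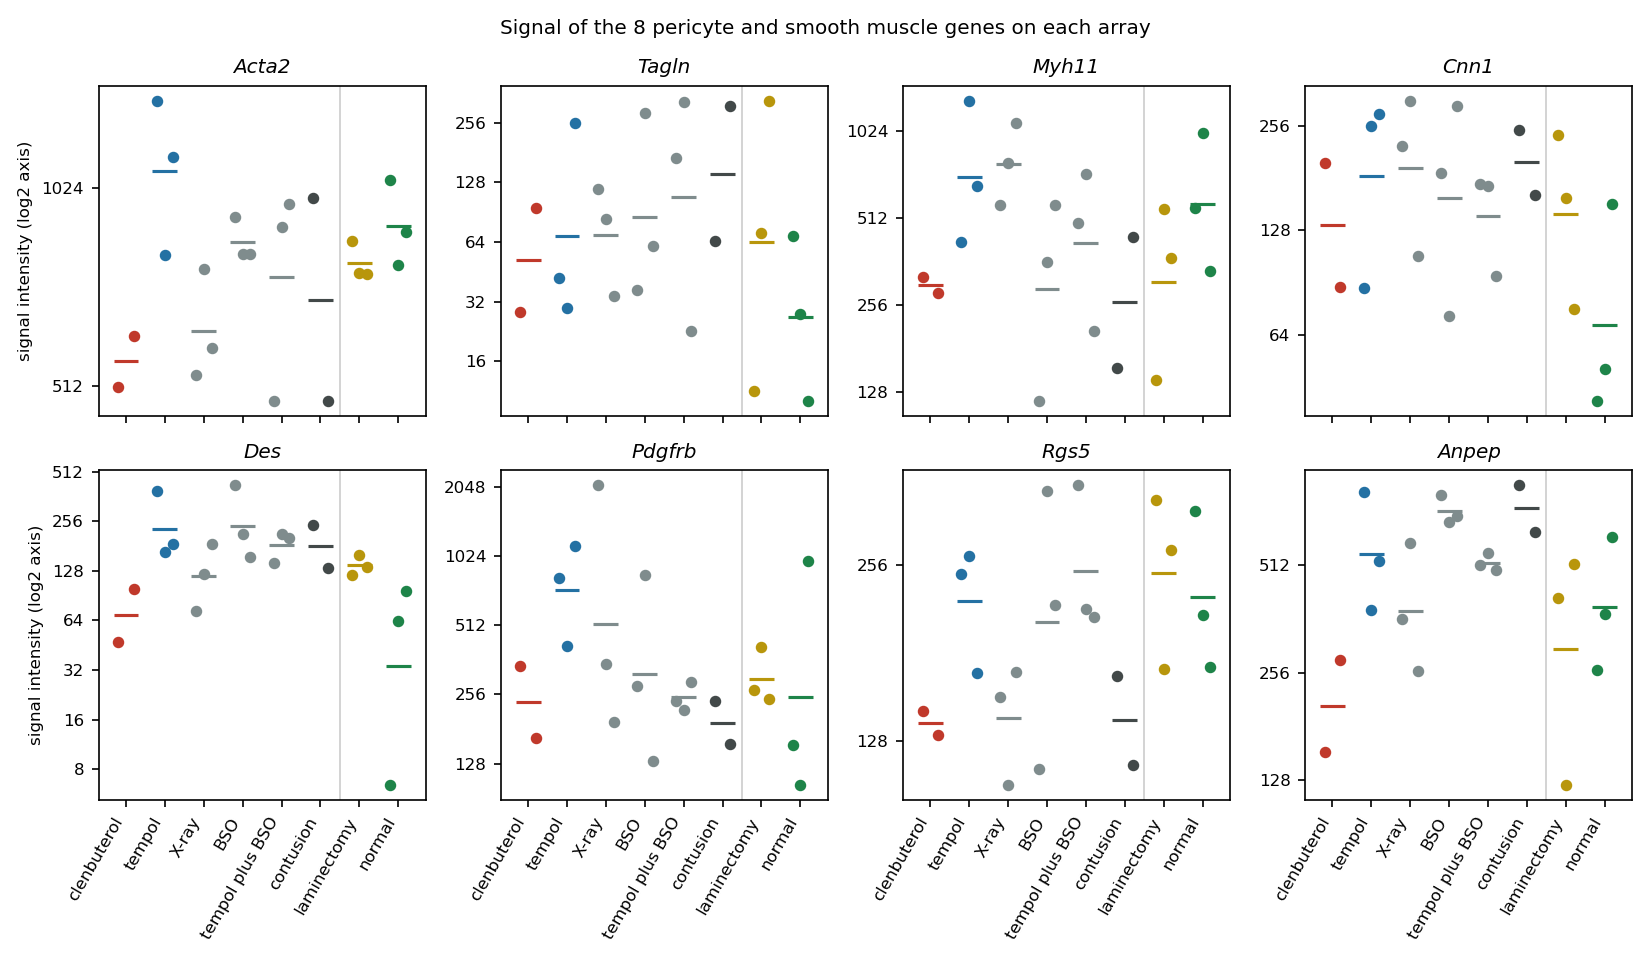
Signal intensity on a log2 axis of the representative probe set of each of the 8 genes, 1 point per array and a bar at each group's mean, with contused groups left of the grey line and laminectomy and normal right of it. Des and Anpep lie lower on both clenbuterol arrays than on the 3 tempol arrays, while Tagln spreads widely within most groups, from 11.3 to 329.3 in laminectomy alone.

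All 8 genes were lower with clenbuterol than with tempol, and for 6 of them (Des, Pdgfrb, Anpep, Myh11, Acta2 and Rgs5) no clenbuterol array reached any tempol array. The genes were picked with this contrast in view, so neither count is evidence for it; 12.1% of all probe sets were also lower without overlap. The median difference of the 8 was −1.10 on the log2 scale, beside −0.02 over all probe sets.

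Among the contractile genes, Des had signals of 47.5 and 99.5 in the clenbuterol group, against 392.6, 167.6 and 186.2 in the tempol group. That is a log2 difference of −1.75 ± 0.83 (SE, 2 and 3 arrays), the widest of the 8. Both clenbuterol arrays lay well under the lowest tempol array. Myh11 had 320.6 and 283.2 with clenbuterol, and 422.4, 1299.4 and 658.6 with tempol, a difference of −1.24 ± 0.77. Acta2 had 511.0 and 611.4 with clenbuterol, and 1389.5, 811.6 and 1141.9 with tempol, a difference of −0.96 ± 0.44. In both genes the clenbuterol arrays were close to each other and the tempol arrays spread upward. Cnn1 had 200.0 and 88.2 with clenbuterol, against 87.2, 256.0 and 277.4 with tempol (−0.47 ± 0.74). Tagln had 28.4 and 95.0 with clenbuterol, against 42.1, 29.7 and 256.0 with tempol (−0.40 ± 1.37). These last genes overlapped between the groups, and their sign rested on single arrays: Cnn1 was at 0.12 without clenbuterol replicate 2, and Tagln at 0.47 without clenbuterol replicate 1 and 0.55 without tempol replicate 3.

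Among the pericyte genes, Pdgfrb had 339.0 and 165.2 with clenbuterol, against 823.2, 414.5 and 1126.5 with tempol, a difference of −1.62 ± 0.96. Anpep had 152.8 and 277.2 with clenbuterol, against 822.9, 382.3 and 527.7 with tempol (−1.42 ± 0.59). Rgs5 had 144.4 and 131.0 with clenbuterol, against 246.9, 265.6 and 167.5 with tempol (−0.69 ± 0.51). The nearest arrays of the groups were 144.4 with clenbuterol and 167.5 with tempol for Rgs5, 339.0 with clenbuterol and 414.5 with tempol for Pdgfrb, and 277.2 with clenbuterol and 382.3 with tempol for Anpep.

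The probe sets of Pdgfrb did not move together. A second Pdgfrb probe set had 164.0 and 184.6 with clenbuterol, against 122.3, 62.4 and 126.1 with tempol, which is higher with clenbuterol without overlap (0.82 ± 0.83), as for 10.7% of all probe sets. The third had 62.9 and 50.5 with clenbuterol, and 54.4, 71.8 and 39.1 with tempol, and overlapped. Over the 22 arrays the representative correlated with them at r = −0.09 and r = 0.29, and those with each other at r = −0.03. Averaging the 3 left a Pdgfrb difference of −0.24 between clenbuterol and tempol. The second Myh11 probe set had 18.0 and 30.8 with clenbuterol, and 67.9, 35.4 and 8.3 with tempol, and correlated with the representative at r = −0.08. The direction of Pdgfrb therefore depends on which of its probe sets is read.

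The clenbuterol and tempol arrays were also set beside the other arrays of contused cord. Comparisons of clenbuterol or tempol with contusion share arrays with the contrast that chose the genes, and with each other the 2 contusion arrays, and are given without a test. With clenbuterol, Anpep was 1.84 below contusion (log2 difference −1.84 ± 0.64) and Des was 1.39 below it (−1.39 ± 0.91), both without overlap, beside 18.8% of all probe sets lower without overlap. Contusion had Anpep signals of 858.0 and 635.6 and Des signals of 242.7 and 133.8. The other differences between clenbuterol and contusion were −1.45 for Tagln, −0.60 for Cnn1, −0.31 for Acta2, −0.01 for Rgs5, 0.20 for Myh11 and 0.29 for Pdgfrb. With tempol, Pdgfrb was 1.91 ± 0.96 above contusion and Rgs5 0.68 ± 0.51 above it, both without overlap, beside 7.86% of all probe sets higher without overlap. Contusion had Pdgfrb signals of 240.3 and 155.3 and Rgs5 signals of 165.5 and 116.6. The other differences between tempol and contusion were 1.44 for Myh11, 0.65 for Acta2, 0.36 for Des, −0.13 for Cnn1, −0.43 for Anpep and −1.05 for Tagln.

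Single arrays were also counted. Of the 11 other contused arrays (contusion, X-ray, BSO and tempol plus BSO), 10 lay above both clenbuterol arrays for Anpep and 10 for Des, while for Pdgfrb 3 did. In turn 9 of the 11 lay below all 3 tempol arrays for Pdgfrb, against 5 for Des and 2 for Anpep. For Acta2 7 of the 11 lay above both clenbuterol arrays and 5 below all tempol arrays, for Myh11 8 and 4, and for Rgs5 8 and 5. For Cnn1 these counts were 4 and 1, and for Tagln 5 and 1. In the other direction, 0 (Anpep and Des) to 3 (Myh11 and Rgs5) lay below both clenbuterol arrays. Above all tempol arrays lay 0 (Acta2 and Myh11) to 3 (Tagln). All these counts share arrays with the contrast that chose the genes. Against the mean of these other 4 contused groups, all 8 genes were lower with clenbuterol by their representative probe sets, from −1.47 for Anpep and −1.35 for Des to −0.33 for Pdgfrb, and 0 of the 8 were free of overlap, beside 1.84% of all probe sets lower without overlap. With tempol 6 were higher and 2 lower, from 1.29 for Pdgfrb to −0.52 for Tagln, again with 0 free of overlap, beside 0.148% of all probe sets higher without overlap. The second and the third Pdgfrb probe set did not follow the representative here: against the same 4 groups they were at 0.93 ± 0.70 and −0.21 ± 0.73 with clenbuterol, and at 0.11 ± 0.59 and −0.28 ± 0.62 with tempol. Against contusion they were at 1.74 ± 0.91 and 0.85 ± 0.95 with clenbuterol and at 0.92 ± 0.83 and 0.77 ± 0.87 with tempol, all higher without overlap. With tempol 7.86% of all probe sets were higher than contusion without overlap. With clenbuterol 18.8% were lower without overlap, and the share that was higher is not given here.

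**Figure D2:**
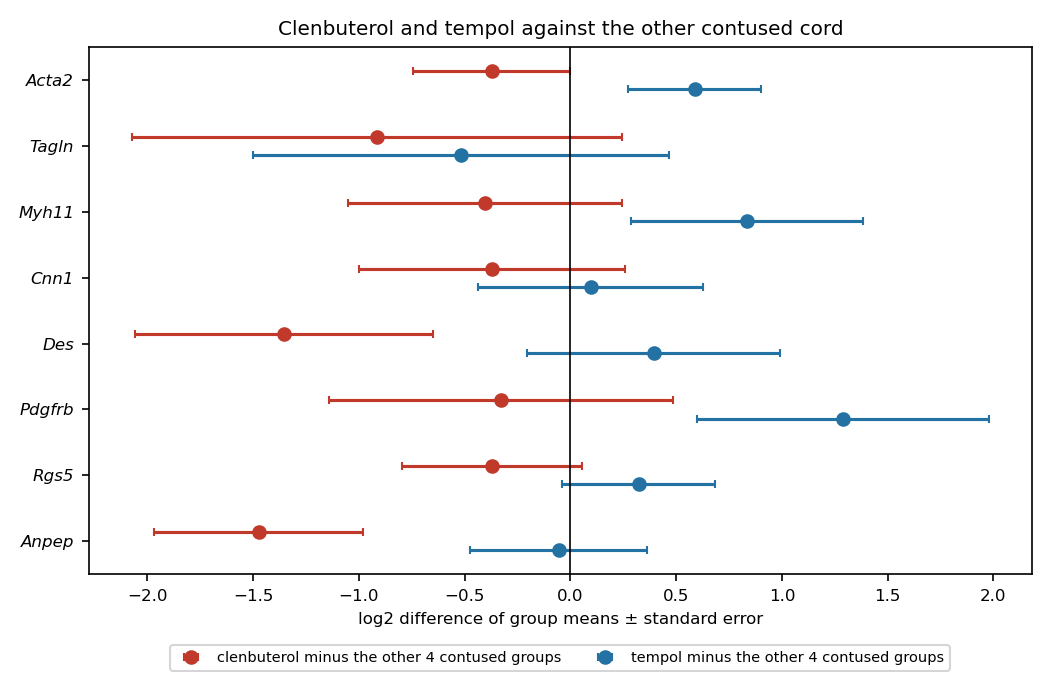
Log2 difference, with its standard error, of clenbuterol (red) and of tempol (blue) from the mean of contusion, X-ray, BSO and tempol plus BSO for each gene. Clenbuterol lies left of 0 for all 8 genes and furthest for Anpep (−1.47) and Des (−1.35) when each gene is read by its representative probe set, and tempol lies furthest right for Pdgfrb (1.29).

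Other gene lists were read in the same contrast; the 8 members were chosen for it, so their median is no measure to set these lists against. Of 19 other contractile genes measured, such as the tropomyosin Tpm1 (0.75) and the calponin Cnn2 (0.06), 12 were higher and 7 lower with clenbuterol, with a median of 0.06. The 19 other pericyte genes, among them the Notch receptor Notch3 (−0.35) and the peptidase Ggt1 (−0.42), had a median of −0.35. The medians were −0.02 over all probe sets, 0.01 for 18 endothelial genes, −0.01 for 20 genes of fibroblasts and meninges and 0.24 for 15 serum response factor regulators and targets. Myeloid genes, the markers of infiltrating white cells and microglia, had a median of −0.38 over 15 genes, with summed signals of 9904 and 11347 with clenbuterol and 12478 to 12740 with tempol. The 23 genes of skeletal and cardiac muscle, which Des and the actins can also mark, had a median of −0.06, with 11 higher and 12 lower, and 13 of the 23 had a mean at or over 64. Their summed signal was 5510 and 7176 with clenbuterol and 7668 to 9310 with tempol. Neither the myeloid nor the muscle sum overlapped between the groups, both being lower with clenbuterol. The endothelial sum did not overlap either and was higher, at 6134 and 6369 with clenbuterol against 5437 to 6108 with tempol. Among the 15 myeloid genes 4 were higher and 5 lower without overlap. Over all single probe sets these shares were 10.7% and 12.1%. Red cell genes had a median of 0.57, with 4 of 5 higher with clenbuterol and summed signals of 5243 and 16680 with clenbuterol and 3505 to 6445 with tempol. The neuron and glia genes had a median of 0.39, with 8 of 13 higher with clenbuterol, and Aqp4, the astrocyte water channel, at 1.58. Of these 13 genes 4 were higher and 2 lower without overlap, beside 10.7% and 12.1% of all probe sets. Their summed signal was 76664 and 93153 with clenbuterol and 41299 to 81306 with tempol. The part of these cell types in the members' difference was not tested.

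Contused cord was then tested against uninjured cord, with the arrays of clenbuterol or tempol alone left out of the means compared. The 11 arrays of contusion, X-ray, BSO and tempol plus BSO were set against the 6 of laminectomy and normal cord. Each group mean had the same weight. Among the 11 only the 2 contusion arrays had no treatment, so the contrast mixes contusion with treatment. Its standard errors came from the fit of all arrays, those of clenbuterol and tempol included. The genes were chosen with earlier results of these data known, so the choice may not be independent of this contrast. None of the 8 genes passed limma's adjusted p of 0.05 in this comparison (0 of 8 by their representative probe sets, here and in the counts that follow, beside 0.277% of all probe sets), and 2 of 8 had an unadjusted p under 0.05, beside 9.74% of all. In direction 5 genes were higher and 3 lower, with a median of 0.43 beside 0.01 over all probe sets, and 0 were free of overlap, beside 0.232% of all.

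Des had the widest difference, with a lowest, median and highest signal of 73.4, 186.8 and 423.5 in contused cord, against 6.4, 108.8 and 160.7 in uninjured cord. The log2 difference was 1.36 ± 0.47, with a 95% interval of 0.38 to 2.33 and a limma adjusted p of 0.295. Most contused arrays exceeded the uninjured median, but the groups overlapped, and without normal replicate 1, which held the 6.4, the difference was 0.75. Against laminectomy alone it was 0.35 and against normal cord alone 2.37. Anpep had 258.6, 592.3 and 858.0 in contused cord, against 123.6, 394.0 and 616.2 in uninjured cord, a difference of 0.74 ± 0.33 (limma adjusted p = 0.464). Without laminectomy replicate 2, which held the 123.6, it was 0.42, and without both arrays that stood apart it was 0.28.

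The other contractile genes gave wide intervals. Tagln was at 1.24 ± 0.77 (22.9, 83.5 and 325.9 in contused cord and 10.1, 48.0 and 329.3 in uninjured cord), and Cnn1 at 0.80 ± 0.42 (72.5, 173.9 and 301.4 in contused cord and 41.4, 114.2 and 240.3 in uninjured cord), with limma adjusted p of 0.642 and 0.567. Acta2 was measured most narrowly, at −0.22 ± 0.25, with 486.2, 812.3 and 989.0 in contused cord and 758.8, 816.6 and 1052.7 in uninjured cord (limma adjusted p = 0.826). Its 95% interval, −0.73 to 0.30, leaves out a doubling of the signal, which is a log2 difference of 1. Myh11 was at −0.07 ± 0.43 and Pdgfrb at 0.12 ± 0.54, with signs that turned when single arrays were left out, and Rgs5 at −0.41 ± 0.28 (limma adjusted p of 0.976, 0.967 and 0.675). The members with the lowest and the highest difference, Rgs5 and Des, are both carried by pericytes.

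**Figure D3:**
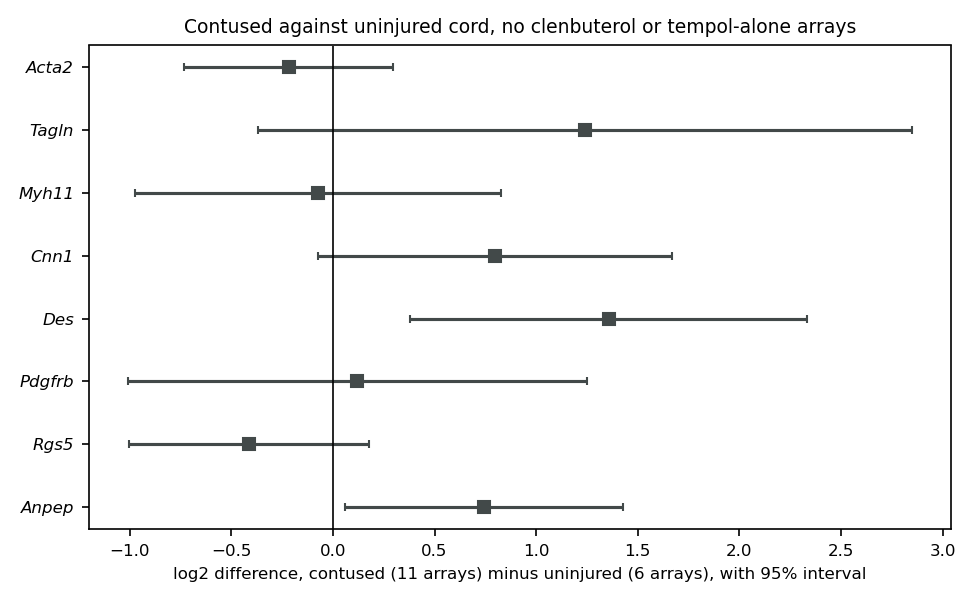
Log2 difference of contused cord (11 arrays without clenbuterol or tempol alone) minus uninjured cord (6 arrays) for each gene, with its 95% interval. The intervals of Des (0.38 to 2.33) and Anpep (0.06 to 1.43) lie right of 0, and the other 6 include 0.

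Parts of the same contrast were also read on their own. Between contusion alone and laminectomy, 0 of 8 genes passed limma's adjusted p of 0.05 (0.00322% of all probe sets did) and 1 had an unadjusted p under 0.05, beside 5.38% of all. That gene was Anpep, at 858.0 and 635.6 after contusion, against 415.5, 123.6 and 515.8 after laminectomy, a difference of 1.31 ± 0.59 (limma adjusted p = 0.925), and 0.67 without laminectomy replicate 2. Anpep was higher without overlap, beside 9.52% of all probe sets, and Rgs5 (−0.84 ± 0.51) and Pdgfrb (−0.63 ± 0.96) were lower without overlap, beside 10.3% of all. Rgs5 read 165.5 and 116.6 after contusion and 331.1, 170.2 and 272.1 after laminectomy.

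Between contusion and normal cord, 0 of 8 passed limma's adjusted p of 0.05 (0.0483% of all did) and 1 had an unadjusted p under 0.05, beside 6.65% of all. Des was at 2.40 ± 0.83 (limma adjusted p = 0.527), with 242.7 and 133.8 after contusion and 6.4, 63.5 and 97.0 in normal cord, and at 1.20 without normal replicate 1. Des, Cnn1 (1.55 ± 0.74) and Anpep (0.92 ± 0.59) were higher without overlap, beside 10.6% of all, and Rgs5 (−0.70 ± 0.51) was lower without overlap, beside 11.6% of all. Tagln was at 2.40 ± 1.37 and Myh11 at −1.13 ± 0.77, both with overlap.

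Laminectomy without contusion was also set against normal cord. Of the 8 genes 0 passed limma's adjusted p of 0.05 between laminectomy and normal cord (0.00644% of all probe sets did) and 1, Des, had an unadjusted p under 0.05, beside 5.59% of all. Des had 120.7, 160.7 and 135.9 after laminectomy, against 6.4, 63.5 and 97.0 in normal cord, a difference of 2.02 ± 0.75 (limma adjusted p = 0.773) that was higher without overlap, as for 4.43% of all probe sets. Without normal replicate 1 it was 0.82. Myh11 was at −0.90 ± 0.69, with overlap. Contusion shares the normal arrays with this comparison, and the Des difference between contusion and laminectomy was 0.38 ± 0.83.

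The treated groups other than clenbuterol and tempol gave no member past the threshold against contusion. With X-ray 0 of 8 passed limma's adjusted p of 0.05 (0% of all probe sets did) and 0 had an unadjusted p under 0.05, beside 4.81% of all. Myh11 had 570.3, 792.4 and 1090.3 with X-ray, against 155.1 and 441.6 after contusion (1.59 ± 0.77, limma adjusted p = 1.000), higher without overlap as for 11.5% of all probe sets. Anpep had 362.1, 592.3 and 258.6 with X-ray, against 858.0 and 635.6 after contusion (−0.95 ± 0.59), lower without overlap as for 12.7% of all. A single X-ray array held the highest Pdgfrb signal of the series, 2078.4, while the others had 346.0 and 194.0.

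With BSO 0 of 8 passed limma's adjusted p of 0.05 against contusion (0% of all did), 0 had an unadjusted p under 0.05, beside 3.46% of all, and 0 were free of overlap, beside 16.8% of all in either direction. By the representative probe sets the widest differences were −0.72 ± 1.37 for Tagln, 0.70 ± 0.96 for Pdgfrb and 0.56 ± 0.51 for Rgs5. The second Pdgfrb probe set had a wider difference (1.71 ± 0.83). It was higher without overlap, at 142.5, 181.5 and 192.1 with BSO, against 51.9 and 52.3 after contusion. The third Pdgfrb probe set overlapped (0.53 ± 0.87). With tempol plus BSO 0 of 8 passed against contusion by the same limma test (0% of all did), and 0 had an unadjusted p under 0.05, beside 3.98% of all. Rgs5 had 350.4, 214.9 and 208.5 with tempol plus BSO, against 165.5 and 116.6 after contusion (0.85 ± 0.51), higher without overlap as for 9.54% of all. Anpep had 511.2, 553.3 and 497.2 with tempol plus BSO, against 858.0 and 635.6 after contusion (−0.51 ± 0.59), lower without overlap as for 8.42% of all, and Cnn1 was at −0.51 ± 0.74.

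The effect of tempol on top of BSO was read against BSO alone. Of the 8 genes 0 passed limma's adjusted p of 0.05 (0% of all did) and 0 had an unadjusted p under 0.05, beside 4.13% of all. Anpep was lower without overlap, at 511.2, 553.3 and 497.2 with tempol plus BSO, against 806.5, 677.9 and 705.3 with BSO (−0.49 ± 0.52), as for 3.97% of all probe sets. Myh11 was at 0.53 ± 0.69. Pdgfrb, whose highest group was tempol alone, had 240.4, 219.9 and 289.9 with tempol plus BSO, against 278.2, 850.1 and 131.3 with BSO (−0.34 ± 0.86). The third Pdgfrb probe set went the other way, with 154.9, 52.4 and 455.2 with tempol plus BSO, against 30.1, 44.6 and 68.1 with BSO, a difference of 1.78 ± 0.78 (unadjusted p under 0.05, limma adjusted p = 1.000). Against the 33.4 and 29.3 of contusion it was higher without overlap, at 2.31 ± 0.87 (unadjusted p under 0.05, limma adjusted p = 1.000). In that comparison 9.54% of all probe sets were higher without overlap and 3.98% had an unadjusted limma p under 0.05. Against BSO 4.13% of all had an unadjusted limma p under 0.05. The second Pdgfrb probe set was at −0.92 ± 0.74 with tempol plus BSO against BSO.

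In the contrast of contused with uninjured cord, few genes of the related lists passed the threshold outside the myeloid list. Of the other contractile genes 0 of 19 passed limma's adjusted p of 0.05 (median 0.06), with Tpm1 at 0.32 ± 0.31 and Cnn2 at 0.78 ± 0.27. Of the other pericyte genes 0 of 19 passed (median −0.25), with Notch3 at 0.08 ± 0.32 and Ggt1 at 0.05 ± 0.39. Of the PDGF, TGF-beta and Notch signals 0 of 17 passed (median −0.01), with the inhibitor Smad7 at 0.14 ± 0.42 and the Notch target Hey1 at −0.77 ± 0.29. Endothelial genes had 0 of 18 past the threshold (median 0.04), with the transporters Slco1a4 at −0.74 ± 0.39 and Slc2a1 at 0.25 ± 0.27. Genes of fibroblasts and meninges had 0 of 20 (median −0.14), with Mgp at 0.43 ± 0.38 and Ptgds at −0.29 ± 0.30. Skeletal and cardiac muscle genes had 0 of 23 (median −0.05), with the myosin Myh1 at −0.36 ± 0.49 and the troponin Tnnt3 at 0.10 ± 0.41.

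Among serum response factor regulators and targets 1 of 15 rose and 0 fell (median 0.08). The gene that rose was the immediate early gene Egr1, at 2.44 ± 0.45 (limma adjusted p = 0.0242). Egr1 was at 2.51 ± 0.73 between laminectomy and normal cord, and at 0.63 ± 0.81 between contusion and laminectomy. Tead1 was at 0.09 ± 0.27, and the adhesion protein gene Vcl, which is on the contractile list as well, at −0.36 ± 0.40. Of the myeloid genes 6 of 15 rose and 0 fell (median 0.99), among them S100a9, a neutrophil calcium-binding protein, at 2.94 ± 0.42 (limma adjusted p = 0.0024), the arginase Arg1 at 2.08 ± 0.29, the endotoxin co-receptor Cd14 at 1.47 ± 0.26 and the lysozyme gene Lyz2 at 1.10 ± 0.23. The microglial gene Aif1 was at 0.37 ± 0.51 and did not pass. Of the red cell genes 1 of 5 rose, Hbb at 3.00 ± 0.36 (limma adjusted p = 0.00043), with Alas2, of heme synthesis, at 1.44 ± 0.35 (limma adjusted p = 0.0957). Of the neuron and glia genes 2 of 13 fell, the neurofilament Nefl by 1.62 and the astrocyte water channel Aqp4 by 1.36, and 0 rose, with the myelin gene Mbp at −0.63 ± 0.32 and the astrocyte filament gene Gfap at −0.53 ± 0.24. The summed myeloid signal was 16391 and 17624 after contusion, against 10633 to 13349 after laminectomy and 6218 to 7327 in normal cord. Des was lowest in normal cord too, and the part of these cell types in it was not tested.

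The 8 genes did not vary as 1 group over the arrays. Of their 28 pairs, 11 had a Pearson correlation of log2 signal below 0 over the 22 arrays, the median was 0.06, and 1 pair, Des with Anpep, was over 0.5 (r = 0.51, Spearman's rho = 0.57). That pair was at r = 0.39 on deviations from the group means. Without the 2 arrays that stood apart 3 pairs were over 0.5, all among Des, Anpep and Acta2: Des with Anpep at 0.70, Acta2 with Des at 0.62 (0.18 over all arrays) and Acta2 with Anpep at 0.58 (0.40 over all arrays). The lowest pair was Cnn1 with Rgs5 at −0.36. Within the 5 contractile genes the 10 pairs had a median of −0.05 and at most 0.39, for Des with Cnn1, a pair that was at 0.01 without those 2 arrays. These are descriptions over arrays that share groups and scaling.

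**Figure D4:**
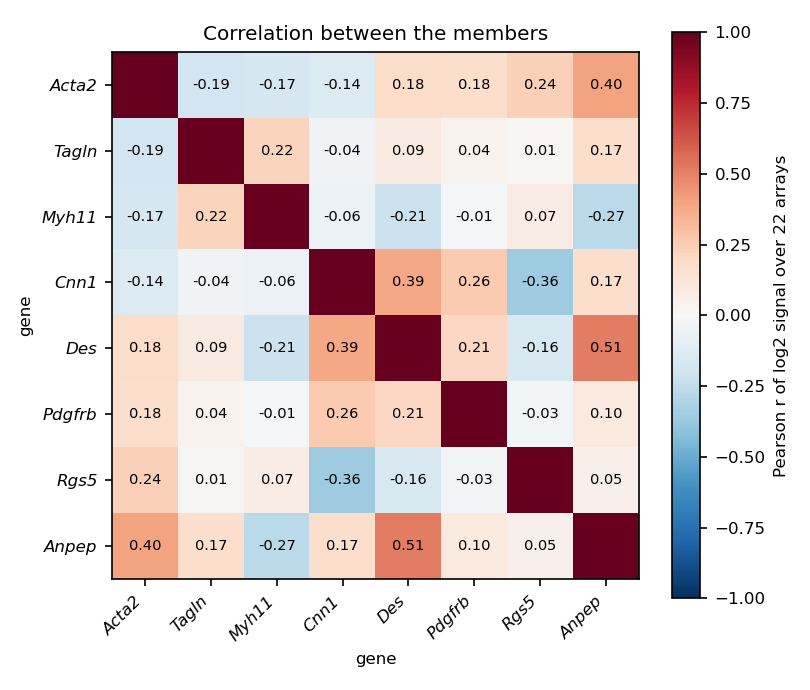
Pearson correlation of log2 signal over the 22 arrays for each pair of the 8 genes, from −1 (blue) to 1 (red), with the value in each cell. Des with Anpep (0.51) is the only pair over 0.5, and most cells are pale.

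Of 9069 candidate genes, those whose pattern over the 22 arrays was most like the mean of the standardised contractile genes were Dctpp1 (r = 0.72), Zfp386 (0.70), C5ar1 (0.68), Trim8 (0.67), Stk17b (0.66) and Sec13 (0.65). For the mean of the pericyte genes they were Sirpa (r = 0.78), Cdpf1 (0.76), Tex13c3 (0.71), Dap3 (0.70), Actr8 (0.69) and Hspa12b (0.68). None of these 12 genes is on the gene lists. The pericyte pairs had a median r of 0.05 and at most 0.10, and the contractile pairs a median of −0.05. Neither mean is therefore a pattern that its genes share. The named genes were picked as the highest of 9069 correlations over 22 arrays, and their r was not tested.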

How the data were processed

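The authors deposited 1 table of signal intensity for 22 arrays and 31099 probe sets, with each array scaled to a mean of about 250 after trimming 2% at each end. The submitters' processing notes name RMA, but the deposited intensity is linear (0.3 to 154527.2) and not quantile normalized, so log2 was taken here. The 57 controls were left out; among the 31042 kept, 20826 carry a single symbol (20758 of them matched through Entrez numbers), 436 have more than 1 and 9780 lack one. One limma fit (limma 3.58.1, R 4.3.3) of all 22 arrays with 8 group means gave moderated two-sided tests (14 residual and 4.713 prior degrees of freedom), with p-values adjusted by Benjamini-Hochberg over all 31042 probe sets and a threshold of 0.05. The number of arrays limits the precision, with a median standard error of 0.68 for 3 arrays against 3. The fit was tested on simulated data.

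The members and the 10 gene lists were chosen with earlier results of these data known. Named from each list were the 2 genes with the highest mean log2 and up to 3 past the threshold, smallest p first. Likeness was the Pearson correlation with the mean of the standardised members, and the 6 highest were named among genes whose mean log2 was at or over the median of all probe sets, 7.13. Samples with the same replicate number did not deviate together: 71 such pairs had a median correlation of −0.005 (−0.20 to 0.20), and 140 pairs of other numbers 0.005. The alternatives tried were quantile normalization, a filter at a mean signal of 64, an offset of 32 before the logarithm, robust eBayes with a trend, a model of the compared groups alone, array weights, a replicate block, averaging a gene's probe sets, other reference groups, and leaving out arrays.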

Additional observations from a re-analysis of the deposited data

How the results depend on the processing

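None of the 8 genes passed limma's adjusted p of 0.05 in any tested comparison under any alternative tried (0 throughout, the replicate block included), and the smallest adjusted p was 0.118, for Des between contused cord and normal cord alone (2.37). With laminectomy alone as the reference Des was at 0.35 (limma adjusted p = 0.933) and Cnn1 at 0.27. With the replicate block the Des difference between contused and uninjured cord was 1.38 and it changed no call. The count of genes without overlap between clenbuterol and tempol was 6 to 7 when single arrays were left out. Removing an array cannot make separate groups overlap, so this count could not fall and does not measure how stable the separation is. The share of all probe sets in such reduced groups is not given here. Of 544 alternative values of the 30 tested member differences, 17 in 6 differences had the other sign; the 112 values of clenbuterol minus tempol are not in this count, and there Cnn1 (0.12) and Tagln (0.47 and 0.55) turned sign when single arrays were left out. For Myh11 between contused and uninjured cord they were 0.31 with the mean of its probe sets, 0.13 without both arrays that stood apart and 0.38 with laminectomy as the reference, and −0.35 to 0.14 when single arrays were left out. For Pdgfrb in that comparison they were −0.011 with laminectomy as the reference and −0.20 to 0.61 when single arrays were left out. Leaving out single arrays also gave −2.16 to 0.11 for Tagln with X-ray against contusion, −1.85 to 0.42 for Tagln and −0.015 to 1.33 for Pdgfrb with BSO against contusion, and −0.11 to 1.04 for Myh11 with tempol plus BSO against BSO. The Pdgfrb difference between clenbuterol and tempol was −0.24 with the mean of its probe sets. The cause of these turns was not tested. Groups of 2 and 3 arrays leave wide intervals, and a lone array left in a group takes its spread from the remaining groups.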

Other observations

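The 5 probe sets assigned to both Acta2 and Actc1 had mean log2 signals of 4.97, 4.40, 3.02, 5.46 and 7.57 over the 22 arrays. The highest of them ran from 64.2 to 417.3 in signal, and the array does not say which actin gene it reads.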
